A study of Mus musculus with 386 samples.

Results

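A set of 9 genes of fatty acid synthesis and desaturation were followed through 3 stages of oocyte formation in the mouse ovary. They are Acaca and Fasn, which build the saturated chain, Elovl6, Elovl1 and Elovl5, which lengthen it, and Scd1, Scd2, Fads1 and Fads2, which put double bonds into it. The genes were chosen by name, and all 9 have a row among the 54658 gene rows of the deposited counts. The 386 libraries are Smart-seq2 libraries of polyadenylated RNA, each from 1 female germ cell that was hand-picked after ovaries had been taken apart with enzymes: 22 from embryonic day 17.5 (E17.5), 47 from postnatal day 6.5 (P6.5) and all others from postnatal day 2.5 (P2.5). No strain, genotype, treatment or animal is named in the labels of any group, so the 3 stages differ in age and are otherwise not described. The series is about how oocytes in primordial follicles take different fates.

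Cells make fatty acids in the cytosol from acetyl-CoA. Acetyl-CoA carboxylase (Acaca) makes malonyl-CoA, and fatty acid synthase (Fasn) joins these units into palmitate with reducing power from NADPH. Elovl6 lengthens palmitate to stearate, Elovl1 makes very long saturated and monounsaturated chains, and Elovl5 lengthens polyunsaturated chains. Stearoyl-CoA desaturases (Scd1, Scd2) make oleate and palmitoleate, while Fads2 and Fads1 are the delta-6 and delta-5 desaturases that turn dietary polyunsaturated acids into arachidonate and related acids. In many tissues these genes are switched on together by the sterol-sensing factors SREBP (Srebf1, Srebf2) and the sugar-sensing factor ChREBP (Mlxipl). In the ovary the oocyte grows inside a follicle of granulosa cells, which pass it small molecules through gap junctions.

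The 9 genes lie on 5 chromosomes of the mouse genome (GENCODE annotation of GRCm38, the assembly also called mm10, which the submitters' processing notes name). Acaca (ENSMUSG00000020532.18) is at chr11:84129672-84401651 on the plus strand and Fasn (ENSMUSG00000025153.9) at chr11:120805846-120824547 on the minus strand. Elovl6 (ENSMUSG00000041220.10) is at chr3:129532355-129638495, Elovl1 (ENSMUSG00000006390.15) at chr4:118428093-118432953 and Elovl5 (ENSMUSG00000032349.13) at chr9:77917364-77984519, all on the plus strand. The desaturases sit in 2 groups on chromosome 19. Fads2 (ENSMUSG00000024665.8, chr19:10062765-10101746, minus strand) is next to Fads1 (ENSMUSG00000010663.5, chr19:10182888-10196877, plus strand), and Scd2 (ENSMUSG00000025203.6, chr19:44293674-44306864, plus strand) is near Scd1 (ENSMUSG00000037071.3, chr19:44394455-44407879, minus strand). Elovl1 shares 53 exonic bases (1.94% of its exons) with Cdc20 on the opposite strand, and Elovl6 shares 34 (0.529%) with the antisense gene Gm35986; reads there cannot be told apart, since no source used here gives the strand setting.

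RefSeq start-site windows (GRCm38.p6, from 250 bases before to 50 bases after the start) were given for 6 of the 9 members, Acaca, Fasn, Elovl6, Elovl1, Elovl5 and Fads2, in 7 windows. Both strands were searched for the E-box CACGTG, which ChREBP and SREBP1 can bind, for CCAAT, the box of the NF-Y factor, and for TCACCCCA, the core of a sterol response element. The windows of Fasn (the member that was higher at P6.5) and of Elovl5 (the member with the highest level per length after birth) are shown, with CACGTG and CCAAT matches of either strand in capitals, each read 5′ to 3′ on the gene's own strand.
Fasn, chr11:120824498-120824797, minus strand: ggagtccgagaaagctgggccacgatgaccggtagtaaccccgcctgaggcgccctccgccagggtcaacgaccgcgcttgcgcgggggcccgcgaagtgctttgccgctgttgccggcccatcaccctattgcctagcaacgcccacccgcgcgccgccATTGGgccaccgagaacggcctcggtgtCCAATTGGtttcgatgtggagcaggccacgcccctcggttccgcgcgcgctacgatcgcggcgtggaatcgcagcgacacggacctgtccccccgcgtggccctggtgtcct
Elovl5, chr9:77917115-77917414, plus strand: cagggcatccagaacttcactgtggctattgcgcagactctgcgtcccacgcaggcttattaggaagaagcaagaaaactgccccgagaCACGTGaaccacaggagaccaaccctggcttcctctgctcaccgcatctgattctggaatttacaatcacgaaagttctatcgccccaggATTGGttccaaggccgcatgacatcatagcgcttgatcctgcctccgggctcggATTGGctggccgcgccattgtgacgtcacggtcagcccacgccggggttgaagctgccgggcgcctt
The Fasn window held 3 CCAAT matches, of which 2 overlap in the run CCAATTGG, and no CACGTG. The Elovl5 window held 1 CACGTG and 2 CCAAT matches. The first of 2 Elovl1 windows held 1 CCAAT match, and those of Acaca, Elovl6 and Fads2 held none of the 3 motifs. The Acaca window (chr11:84195188-84195487) lies inside the gene, far from the first base given above. A window at that first base was not searched. TCACCCCA was found in none of the 7 windows. Of all 32851 windows of this length, 7.15% held CACGTG, 37.4% held CCAAT and 1.56% held TCACCCCA. These matches describe letters in a window and do not show binding.

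Among the P2.5 libraries, 24 pairs were nearly identical (median chi-square over genes 0.686 to 1.03, under a limit of 1.5 and against a median of 34.6 in 300 other pairs) and each pair was counted as 1 cell, which left 362 cells. Gene counts per cell had a lowest, median and highest value of 1016746, 6394864 and 16125066 for E17.5 cells, 435560, 6582106 and 26897828 for P2.5 cells, and 5714357, 8596803 and 15799302 for P6.5 cells. The labelled cell type was checked against its markers: all 6 germ cell genes (Ddx4, Dazl, Dppa3, Mael, Taf4b, Sycp3) had counts at every stage, and their sum, in CPM (a gene's counts as a share of all gene counts of the cell, scaled to 1000000), covered 246.6 to 5294 in E17.5 cells, 2002 to 7680 in P2.5 cells and 3636 to 6741 in P6.5 cells. It was lowest in E17.5 libraries 8, 10, 15 and 16 (488, 300.1, 246.6 and 705 CPM, against at least 1175 CPM in the other 18). E17.5 libraries also carried markers of other cells. The mast cell list (7 of 8 genes seen, Fcer1a at 0) summed to 1518 to 113890 CPM in E17.5 libraries 1 to 10 and to 10.1 to 240 CPM in libraries 11 to 22. The granulosa and pregranulosa list (11 of 12 seen, Fshr at 0) passed 1000 CPM in libraries 16, 18 and 19 (1233, 1964 and 1352 CPM). The erythroid list (5 of 5 seen) summed to 214.3 to 5863 CPM over E17.5 cells, and had a median of 9.395 CPM over P2.5 cells and 0.988 CPM over P6.5 cells. The members' 2-fold counts that rest on E17.5, and the ratios behind them, are therefore given with and without libraries 8, 10, 15, 16, 18 and 19. Other E17.5 values of the members, such as ranges, shares of cells, FPKM and correlations, used all 22 libraries unless stated. For other genes all libraries were used unless stated. Adipocyte markers, a cell type that makes much fat, summed to at most 1.11, 20.8 and 6.50 CPM in any cell of the 3 stages.

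All 9 genes had counts in most E17.5 libraries, though Scd1 was at 0 in 9 of 22 and had a median of 0.203 CPM. Any count of Elovl6, Scd2 or Fads2 was also found in most P2.5 cells (41.3%, 39.6% and 39.9% at 0). Their P2.5 medians were 0.197, 0.439 and 0.238 CPM. Germ cells of P2.5 and P6.5 held mainly Elovl5, Elovl1, Acaca and Fasn RNA, and the 4 desaturases and Elovl6 were at or near 0 in most cells. Fasn was the 1 member whose P6.5 level was at least 2 times its P2.5 level, and it lay above the P2.5 median in all 47 P6.5 cells. After each cell was thinned to 400000 counts, the median cell had a count for 7 of the 9 genes at E17.5 (range 4 to 9), for 4 at P2.5 (2 to 8) and for 4 at P6.5 (3 to 7). A stage's level is the CPM of the summed counts of its cells. The labels name no animals, so each stage is 1 sample, cells are not replicates and no difference was tested; intervals of ratios are exact conditional Poisson intervals at 95% and cover the counting of reads only.

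**Figure D1:**
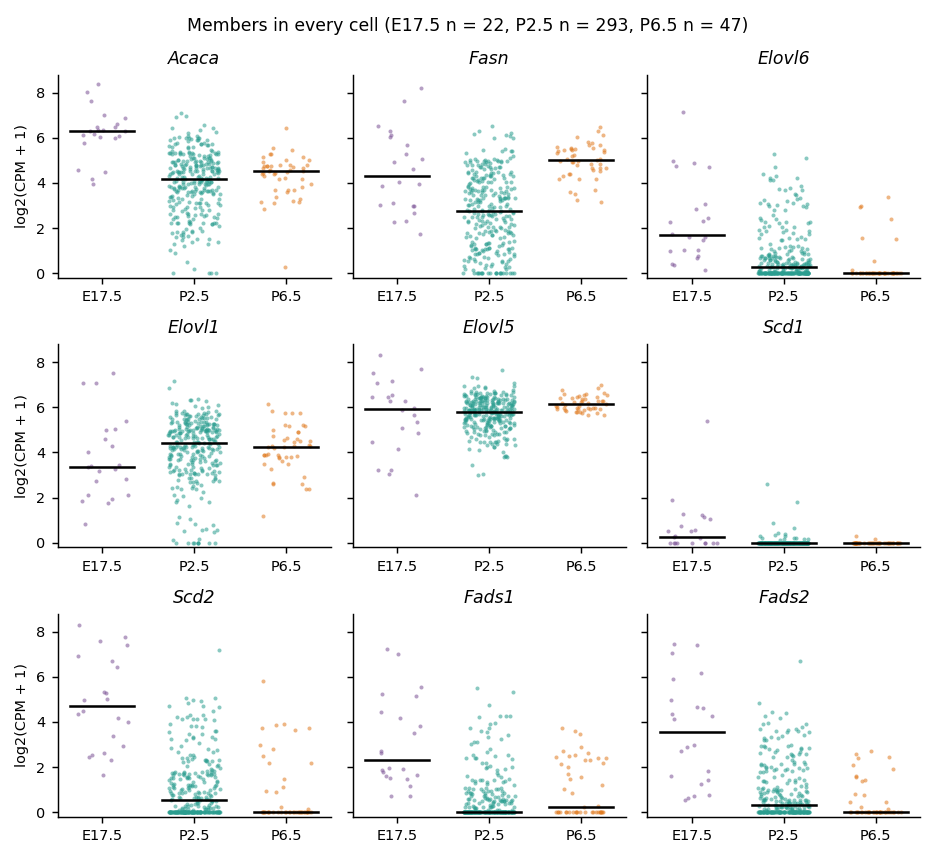
Each point is 1 cell and shows log2(CPM + 1) of a member on the vertical axis, by stage on the horizontal axis (22 cells of E17.5, 47 of P6.5 and the other cells of P2.5); black lines are medians. Fasn lies above the P2.5 median in all 47 P6.5 cells, Elovl5 has no cell at 0, and Elovl6, Scd1, Scd2, Fads1 and Fads2 lie at or near 0 in most cells after birth.

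Acaca, the enzyme that commits acetyl-CoA to fatty acid synthesis, had a lowest, median and highest level of 14.4, 78.7 and 334 CPM over E17.5 cells, 0, 16.97 and 135.7 CPM over P2.5 cells, and 0.216, 21.9 and 86.5 CPM over P6.5 cells. The stages overlapped, but 43.003% of P2.5 cells lay below every E17.5 cell and 2.39% above the E17.5 median. In the sums Acaca stood at 23.7 CPM at P2.5, against 94.7 CPM at E17.5, a 4.004-fold lower level (log2 ratio -2.0015, interval -2.03 to -1.97). At P6.5 it stood at 22.3 CPM, against 23.7 CPM at P2.5 (log2 ratio -0.08, -0.11 to -0.05), and the sign turned with TMM scaling (0.20). The share of cells with at least 10 Acaca counts after thinning was 86.4% of 22 at E17.5 (exact Clopper-Pearson 95% interval 65.1 to 97.1%), 36.2% of the P2.5 cells (30.7 to 41.97%) and 40.4% of 47 at P6.5 (26.4 to 55.7%).

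Fasn, the synthase that makes palmitate, had a lowest, median and highest level of 2.33, 19.5 and 293.3 CPM in E17.5 cells, 0, 5.80 and 89.96 CPM in P2.5 cells, and 7.90, 31.3 and 88.7 CPM in P6.5 cells. It was the most uneven of the 4 common members at P2.5, where 21 cells were at 0 and the 29 highest cells held 39.4% of the summed CPM over cells. At P6.5 no cell was that low. All 47 P6.5 cells lay above the P2.5 median, 56.3% of P2.5 cells lay below the lowest P6.5 cell, and none of the P6.5 cells lay above the highest P2.5 cell. In the sums Fasn stood at 34.3 CPM at P6.5, against 13.4 CPM at P2.5, a 2.57-fold higher level (log2 ratio 1.36, 1.33 to 1.39). At P2.5 it stood at 13.4 CPM, against 59.7 CPM at E17.5 (log2 ratio -2.16, -2.19 to -2.12). At least 10 Fasn counts were found in 45.5% of E17.5 cells (24.4 to 67.8%), in 15.02% of those from P2.5 (11.1 to 19.6%) and in 65.96% of those from P6.5 (50.7 to 79.1%).

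The 3 elongases went separate ways. Elovl5, which acts on polyunsaturated chains, had a lowest, median and highest level of 3.34, 59.4 and 319 CPM in E17.5 cells, 6.89, 55.03 and 196.98 CPM in P2.5 cells, and 48.8, 69.99 and 126.1 CPM in P6.5 cells. It was the 1 member with a count in every cell of all stages, and its spread between cells (SD over mean of CPM) was 0.987 at E17.5, 0.474 at P2.5 and 0.243 at P6.5. After thinning, 47 of 47 P6.5 cells and 88.1% of P2.5 cells (83.8 to 91.5%) had at least 10 Elovl5 counts. Its sums were 73.3 CPM at P6.5, against 57.6 CPM at P2.5 (log2 ratio 0.35, 0.33 to 0.37), and 57.6 CPM at P2.5, against 80.8 CPM at E17.5 (-0.49, -0.52 to -0.46), where the sign turned without E17.5 libraries 8, 10, 15 and 16 (0.15).

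Elovl1, which makes very long chains, had a lowest, median and highest level of 0.778, 9.38 and 182.3 CPM in E17.5 cells, 0, 20.1 and 140.7 CPM in P2.5 cells, and 1.24, 17.9 and 69.1 CPM in P6.5 cells. Its median cell was higher at P2.5 than at E17.5 and its sum lower, at 23.8 CPM at P2.5, against 44.3 CPM at E17.5 (log2 ratio -0.90, -0.93 to -0.86). Of its E17.5 counts, 82.1% came from the 4 libraries low in germ cell markers. P6.5 and P2.5 were close, with 21.3 CPM at P6.5 and 23.8 CPM at P2.5 (-0.16, -0.19 to -0.13), and 0.13 with TMM scaling. Elovl6, which turns palmitate into stearate, had a lowest, median and highest level of 0.0972, 2.20 and 140.55 CPM in E17.5 cells, 0, 0.197 and 38.4 CPM in P2.5 cells, and 0, 0 and 9.46 CPM in P6.5 cells. It was at 0 in 0 of 22 E17.5 cells, 41.3% of P2.5 cells and 39 of 47 P6.5 cells. The 29 highest P2.5 cells held 73.001% of its CPM, and the 3 highest of them (25.1 to 38.4 CPM) had germ cell markers of 3070 to 4590 CPM granulosa markers of at most 8.77 CPM and at most 42.3 CPM of any other marker list.

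Scd2 and the 2 Fads genes were present in every E17.5 library and sparse after birth. Scd2, a stearoyl-CoA desaturase of brain and embryonic tissues, had a lowest, median and highest level of 2.19, 25.7 and 313.5 CPM in E17.5 cells, 0, 0.439 and 146.8 CPM in P2.5 cells, and 0, 0 and 55.4 CPM in P6.5 cells. It was at 0 in 39.6% of P2.5 cells and 30 of 47 P6.5 cells (63.8%). Fads1, the delta-5 desaturase, had 0.625, 4.08 and 150.5 CPM in E17.5 cells, 0, 0 and 43.8 CPM in P2.5 cells, and 0, 0.165 and 12.1 CPM in P6.5 cells. Fads2, the delta-6 desaturase, had 0.468, 11.7 and 175.4 CPM in E17.5 cells, 0, 0.238 and 102.3 CPM in P2.5 cells, and 0, 0 and 5.65 CPM in P6.5 cells. For all 3 more P2.5 cells lay below every E17.5 cell than within the E17.5 range: 73.4% for Scd2, 73.7% for Fads1 and 59.7% for Fads2. The sums at P2.5 were 3.97, 1.75 and 2.25 CPM for Scd2, Fads1 and Fads2, against 79.2, 23.3 and 36.4 CPM at E17.5 (log2 ratios -4.32, -3.73 and -4.02).

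After birth the few cells high in these desaturases stood out. At P2.5 cell 66 held 15.4% of the Scd2 CPM and 15.7% of the Fads2 CPM summed over all cells of the stage, at 146.8 and 102.3 CPM. That cell had 1292 CPM of granulosa markers, 1851 CPM of surface epithelium markers and 737 CPM of stroma markers, the highest of any P2.5 cell for each list, beside 2002 CPM of germ cell markers, the lowest of any P2.5 cell. Cell 92, the highest for Fads1 (43.8 CPM) and Scd1 (5.16 CPM), had 291.2 CPM of granulosa markers. The next 2 Fads1 cells (39.6 and 25.7 CPM) had 76.2 and 0.321 CPM of these markers. The next 2 Fads2 cells (27.9 and 20.8 CPM) had 3.49 and 5.40 CPM. Other lists reached more, such as erythroid (100.7 CPM) in the second of these Fads1 cells and endothelium (50.5 CPM) in the first of these Fads2 cells. The next 2 Scd2 cells (32.6 and 32.2 CPM) had granulosa markers of 2.84 and 12.98 CPM. In the first of these no list but that of germ cells passed 8.11 CPM, and the other had 47.7 CPM of immune and 31.7 CPM of perivascular markers, against P2.5 medians of 7.52 and 2.34 CPM. In the sums Scd2 stood at 2.99 CPM at P6.5, against 3.97 CPM at P2.5 (log2 ratio -0.41, -0.50 to -0.32), Fads1 at 2.05 CPM at P6.5, against 1.75 CPM at P2.5 (0.23, 0.12 to 0.33), and Fads2 at 0.758 CPM at P6.5, against 2.25 CPM at P2.5 (-1.57, -1.74 to -1.40).

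Scd1, the desaturase of liver and fat, was the lowest member at every stage, in CPM and per length. It was at 0 in 9 of 22 cells at E17.5, 94.5% of cells at P2.5 and 45 of 47 at P6.5, and its highest levels were 41.5, 5.16 and 0.231 CPM. E17.5 library 15 alone held 80.1% of the E17.5 CPM summed over cells. After thinning, no P2.5 cell (share at most 1.25%) and 0 of 47 P6.5 cells (at most 7.55%) had 10 counts of it. Scd1 made 3.90% of the counts of Scd1 and Scd2 together in the E17.5 sum (3.55 to 4.27%), 1.28% in the P2.5 sum (1.06 to 1.53%) and 0.245% in the P6.5 sum (0.0505 to 0.714%). Without E17.5 libraries 8, 10, 15 and 16 the E17.5 share was 0.720%.

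Most stearoyl-CoA desaturase reads after birth were divided between Scd2 and Scd3, a neighbouring copy best known from skin. Of the counts of Scd1, Scd2 and Scd3, Scd3 took 1.07% at E17.5, 44.2% at P2.5 and 52.4% at P6.5. Its level was 0.892 CPM at E17.5, 3.19 CPM at P2.5 and 3.29 CPM at P6.5, and 23.9% of P2.5 cells and 38.3% of P6.5 cells were at 0. Scd4 had 0, 150 and 2 counts at the 3 stages. Aligned transcripts were 90.2% identical between Scd1 and Scd3, 88% between Scd1 and Scd2 and 86.2% between Scd2 and Scd3, and the longest identical run of Scd1 and Scd3 was longer than a read of 150 bases. The split between these copies is therefore uncertain. Fads1 and Fads2 were 68.1% identical over 1309 aligned bases and shared no run above 17 bases.

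Levels of different genes were compared per length with the deposited FPKM values (fragments scaled to gene length and library depth). At E17.5 the means over 22 cells were 26.2 ± 25.8 FPKM for Elovl5 (SD), 25.9 ± 33.1 for Acaca, 19.1 ± 33.5 for Elovl1, 16.1 ± 25.9 for Fads2, 12.5 ± 21.35 for Fasn, 11.8 ± 15.99 for Scd2, 6.02 ± 10.1 for Fads1, 4.25 ± 11.2 for Elovl6 and 0.508 ± 1.93 for Scd1. At P2.5 the order was Elovl5 (25.3 ± 13.5 FPKM), Elovl1 (15.7 ± 12.65), Acaca (4.598 ± 4.96) and Fasn (3.55 ± 5.29), and the other 5 members had means of 0.00618 to 0.772 FPKM. At P6.5 it was Elovl5 (37.5 ± 10.55 FPKM), Elovl1 (14.4 ± 10.25), Fasn (7.95 ± 5.32) and Acaca (5.03 ± 3.72), with the other 5 at 0.000638 to 0.593 FPKM over 47 cells. The SD ranges of all neighbours in these orders overlapped except those of Elovl5 and Elovl1 at P6.5. Fasn stood above Acaca at P6.5 and below it at P2.5, within the spread of cells at both stages.

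Across all genes, 17421 were measured between E17.5 and P2.5 (1 CPM or more in either sum, and counts in 3 or more cells). After 0.5 CPM was added to both stages, 7 of the 9 members were at least 2-fold lower in P2.5 cells than in E17.5 cells, against 32.4% of all measured genes. None was at least 2-fold higher, against 22.6% of all genes. The median log2 ratio of the members was -2.75, against -0.26 for all measured genes. That median is the value of Scd1, which stood at -0.74 with library 15 left out. Without E17.5 libraries 8, 10, 15 and 16 the median of 8 measured members was -1.48, against -0.26 for all genes. Without 6 E17.5 libraries it was -1.27, against -0.24. With all libraries the 7 lower genes were Acaca (-1.98), Fasn (-2.12), Elovl6 (-2.99), Scd1 (-2.75), Scd2 (-4.16), Fads1 (-3.40) and Fads2 (-3.75). Elovl1 (-0.88) and Elovl5 (-0.49) were below the 2-fold limit.

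This count rested in part on E17.5 libraries with few germ cell markers. Libraries 8, 10, 15 and 16 held 29.97% of the E17.5 counts but 74.63% of the Fasn counts, 87.15% of the Elovl6 counts, 82.1% of the Elovl1 counts and 90.1% of the Scd1 counts. Without them 4 of 8 measured members were lower by 2-fold or more in P2.5 cells, against 32.7% of all genes: Acaca (-2.24), Scd2 (-3.82), Fads1 (-2.44) and Fads2 (-3.51). Elovl1 was then at least 2-fold higher at P2.5 (1.04), against 23.1% of all genes, and Fasn (-0.67), Elovl6 (-0.72) and Elovl5 (0.15) lay within 2-fold. Without libraries 18 and 19 as well, which had over 1000 CPM of granulosa markers, the same 4 members were lower (Acaca -2.18, Scd2 -3.34, Fads1 -1.71, Fads2 -2.22), against 32.1% of all genes, and Elovl1 stood at 0.90. The libraries then kept differed by number. In the 8 of them numbered 1 to 10 the sums of Acaca, Scd2, Fads1 and Fads2 were 127.1, 7.32, 1.57 and 4.75 CPM. In the 8 numbered 11 to 22 they were 94.5, 73.8, 10.99 and 18.1 CPM, against 23.65, 3.97, 1.75 and 2.25 CPM at P2.5. In the sums Fads1 was thus not lower at P2.5 than in the first 8, and Scd2 and Fads2 lay nearer to P2.5 there. The median cell of Fads1 was lower, at 0 CPM at P2.5, against 1.96 CPM in those 8 libraries. The 29 highest P2.5 cells held 80.2% of the Fads1 CPM summed over cells. Leaving out library 15 alone moved Scd1 to -0.74, and leaving out library 10 alone moved Elovl6 to -1.93. The part of mast cell, granulosa or other RNA in the E17.5 levels of the other libraries was not tested.

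**Figure D2:**
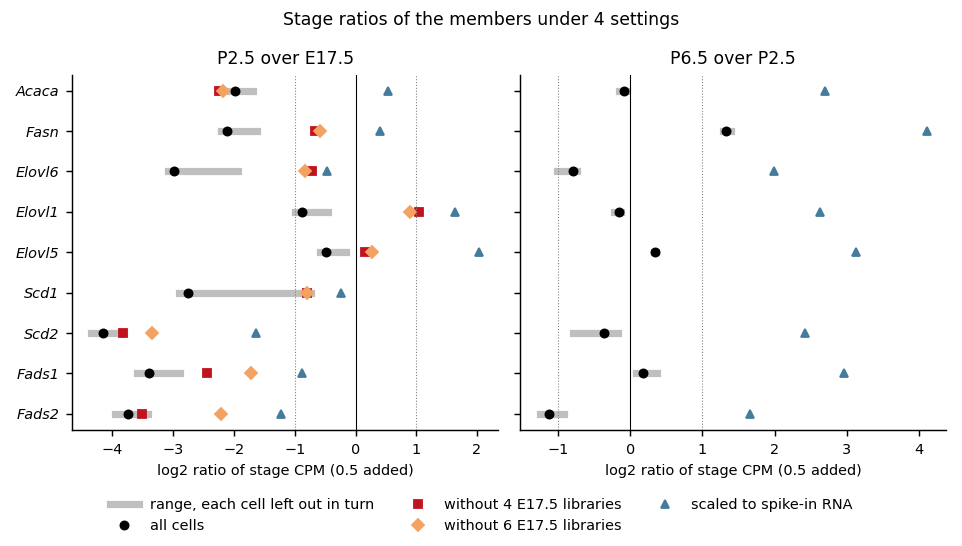
Log2 ratio of the summed CPM (0.5 added) of each member for P2.5 over E17.5 (left) and P6.5 over P2.5 (right). Grey bars span the ratios with each cell left out in turn, dotted lines mark 2-fold, and blue triangles are scaled to spike-in RNA; Acaca, Scd2, Fads1 and Fads2 stay past 2-fold on the left without 4 or 6 E17.5 libraries, while Fasn, Elovl6 and Scd1 do not.

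The E17.5 libraries differed among themselves by member. In libraries 1 to 10, which had the mast cell markers, Scd1 was at 0 in 9 of 10 and reached 0.156 CPM in the other, and Fads2 had a median of 1.53 CPM; in libraries 11 to 22 every library had Scd1 counts (0.195 to 41.5 CPM) and Fads2 had a median of 21.8 CPM. Elovl6 and Elovl1 ran the other way, with medians of 5.95 and 27.1 CPM in libraries 1 to 10 and 1.01 and 4.56 CPM in libraries 11 to 22. Single libraries held extremes. Library 10 (113890 CPM of mast cell markers) had 140.55 CPM of Elovl6 and 319 CPM of Elovl5, and library 16 (1233 CPM of granulosa and 783 CPM of surface epithelium markers) had 293.3 CPM of Fasn and 150.5 CPM of Fads1. Library 15, with 246.6 CPM of germ cell markers and at most 44.4 CPM of any other list but the erythroid one (2087 CPM), had 182.3 CPM of Elovl1, 170.2 CPM of Scd2 and 130.9 CPM of Fads2. Scd2 was highest in library 17 (313.5 CPM), which had 4693 CPM of germ cell markers and 113.1 CPM of granulosa markers. In the 8 libraries numbered 1 to 10 that had neither low germ cell nor high granulosa markers, Scd2 had a median of 5.73 CPM (2.19 to 31.5). In the 8 such libraries numbered 11 to 22 it had a median of 24.997 CPM (5.25 to 313.5). The labels do not say what the numbers mark.

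**Figure D3:**
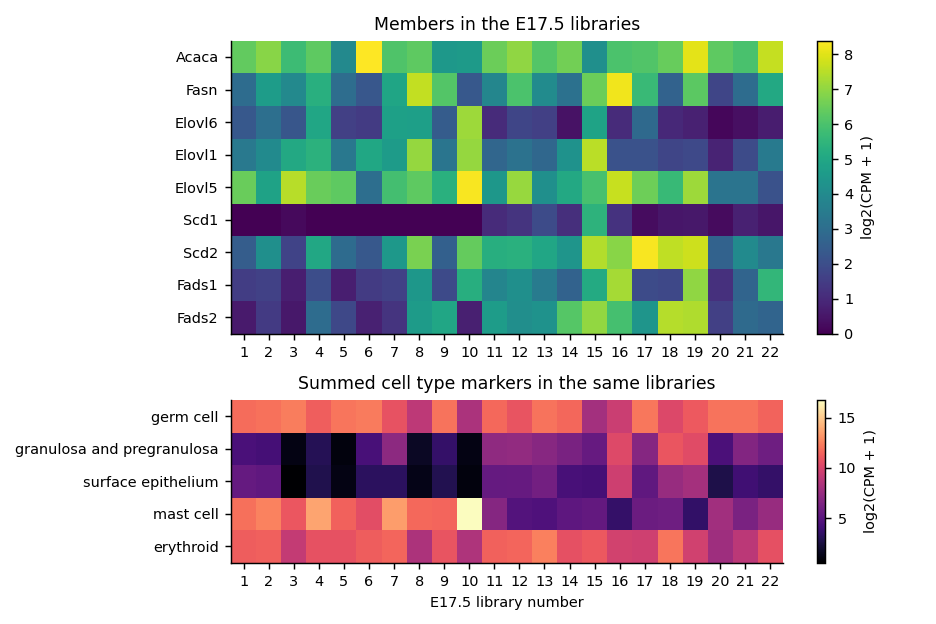
Heat maps of log2(CPM + 1) of the 9 members (top) and of 5 summed marker lists (bottom) in the 22 E17.5 libraries, by library number. Scd1 is at or near 0 in libraries 1 to 10, where mast cell markers are high, and germ cell markers are lowest in libraries 8, 10, 15 and 16.

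Between P2.5 and P6.5 the pathway differed little. Of 14643 measured genes 6.90% were higher by 2-fold or more in P6.5 cells and 9.30% lower. Among the 8 measured members 1 was higher (Fasn, 1.33 after adding 0.5 CPM) and 1 lower (Fads2, -1.13), counts that lie near these shares of all genes. Scd1 was under 1 CPM at both stages and was not measured. The median of the members was -0.12, against -0.18 for all genes. Fasn kept its 2-fold difference with any 1 cell left out (1.28 to 1.39) and so did the count of 1 higher member without cells that had markers of another cell type. The Fads2 difference did not: without P2.5 cell 66 it was -0.91. Granulosa markers summed to 10.5 CPM at P6.5 and 18.5 CPM at P2.5, and perivascular markers to 47.2 CPM at P6.5 and 8.26 CPM at P2.5; their part in the differences beyond the cells left out was not tested. Both comparisons share the P2.5 cells.

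Counts per spike-in RNA were much higher at each later stage, by a log2 shift of 2.51 at P2.5, against E17.5, and of 2.78 at P6.5, against P2.5. On that scale, with 0.5 CPM added, Acaca (0.54) and Fasn (0.40) were higher at P2.5 than at E17.5, while Scd2 and Fads2 stayed at least 2-fold lower. The median of the members was then -0.24, against 2.26 for all measured genes. All 8 measured members were at least 2-fold higher in P6.5 cells than in P2.5 cells, but so was the median of all measured genes (2.60, against 2.67 for the members). Fasn had 0.116 counts per spike-in count at P6.5, against 0.00591 at P2.5, and Fads2 had 0.00256 at P6.5, against 0.000993 at P2.5. No source used here gives the amount of spike-in per cell, and this scale takes it to be equal.

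The regulators of the pathway differed from each other in direction. Mlxipl (ChREBP) had a lowest, median and highest level of 0, 0.243 and 30.7 CPM in E17.5 cells, 0, 17.9 and 134.3 CPM in P2.5 cells, and 0.135, 48.1 and 136.6 CPM in P6.5 cells. The median cell was higher at each later stage. Of P2.5 cells, 94.2% lay above the E17.5 median (log2 ratio 2.68, 2.55 to 2.81), and 45 of 47 P6.5 cells lay above the P2.5 median (1.33, 1.31 to 1.35). Mlx, its partner, stood at 71.4 CPM at P2.5, against 12.8 CPM at E17.5. Srebf1, the SREBP most tied to fatty acid genes, had sums of 95.8, 55.04 and 61.6 CPM at the 3 stages, and Srebf2, more tied to cholesterol genes, 71.998, 27.3 and 30.3 CPM. With all libraries the log2 ratio for P2.5 over E17.5 was -0.79 for Srebf1, but 0.72 without the 6 E17.5 libraries (8, 10, 15, 16, 18 and 19), and that of Srebf2 was -1.38, but -0.68 without them. For P6.5 over P2.5 their log2 ratios were 0.16 and 0.15. Insig1, a brake on SREBP and itself a target of it, had 110.1, 263.97 and 367 CPM. Of 16 measured regulators 6 were higher and 3 lower by 2-fold or more for P2.5 over E17.5, against 22.6% and 32.4% of all genes. Leaving out the 6 libraries gave 5 higher and 1 lower among 17, against 23.9% and 32.1%. For P6.5 over P2.5, 1 (Mlxipl) was higher and 0 lower, against 6.90% and 9.30% of all genes. Among genes with at least 5 CPM at either stage, the lowest ratios at P2.5 were those of Pparg, the adipocyte regulator (1.96 CPM at P2.5, against 18.4 CPM at E17.5), and Mid1ip1, an activator of Acaca (1.0003 CPM at P2.5, against 5.05 CPM at E17.5, and within 2-fold without the 6 libraries at a log2 ratio of -0.80). At P6.5 they were those of Insig2 (11.1 CPM at P6.5, against 22.3 CPM at P2.5) and the retinoid receptor Rxrb (25.5 CPM at P6.5, against 35.99 CPM at P2.5).

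Genes that supply Fasn with carbon and NADPH were read beside it. G6pdx, which makes NADPH in the pentose phosphate pathway, had a lowest, median and highest level of 2.24, 36.1 and 270.6 CPM in E17.5 cells, 13.35, 180.3 and 645 CPM in P2.5 cells, and 349, 807 and 1293 CPM in P6.5 cells; 92.8% of P2.5 cells lay below every P6.5 cell. Me1, malic enzyme and another source of NADPH, had sums of 58.2, 10.3 and 75.7 CPM, and 46 of 47 P6.5 cells lay above the P2.5 median. Slc25a1, which exports citrate from mitochondria, had 191.9, 135.65 and 221.6 CPM. Acly, which splits that citrate into acetyl-CoA, differed from Fasn in direction at P6.5, with 117.1 CPM at P6.5, against 220.2 CPM at P2.5, and 3 of 47 P6.5 cells above the P2.5 median. Acss2, which makes acetyl-CoA from acetate, stood at 24.4 CPM at P2.5, against 166.01 CPM at E17.5. Acacb, the mitochondrial form of acetyl-CoA carboxylase that restrains fatty acid oxidation, had 2.17, 35.7 and 66.1 CPM. Of the 8 supply genes listed 3 were at least 2-fold higher and 3 lower for P2.5 over E17.5, against 22.6% and 32.4% of all genes. Without the 6 E17.5 libraries 2 were higher and 3 lower, against 23.9% and 32.1% of all genes. For P6.5 over P2.5, 2 (G6pdx, Me1) were higher and 0 lower, against 6.90% and 9.30% of all genes.

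**Figure D4:**
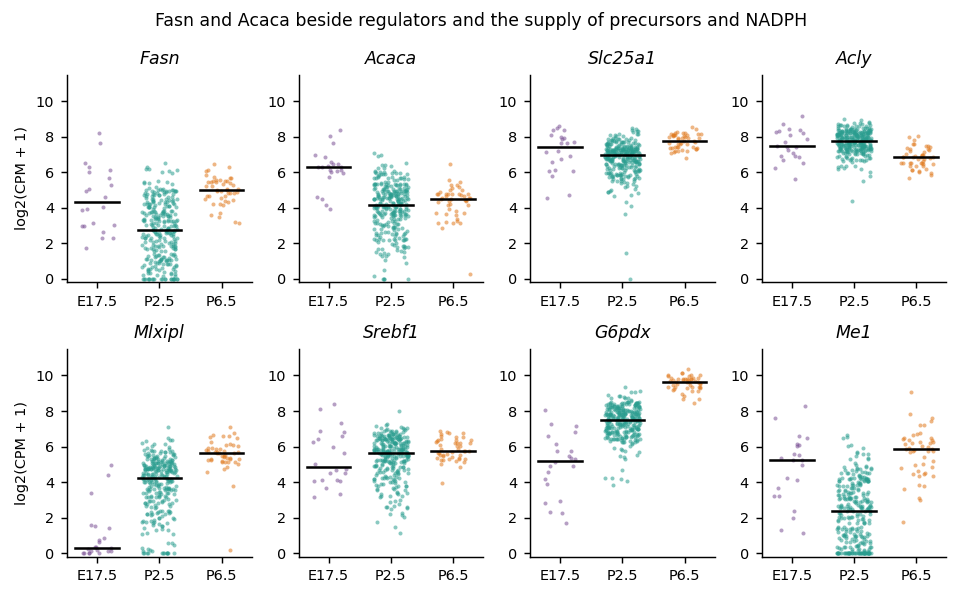
Each point is 1 cell and shows log2(CPM + 1) on the vertical axis, by stage; black lines are medians. At least 45 of 47 P6.5 cells lie above the P2.5 median for Fasn, Mlxipl, G6pdx, Me1 and Slc25a1 and 3 for Acly, while Acaca and Srebf1 differ less (33 and 28 cells).

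Other genes of lengthening and desaturation differed from each other in direction. Of 9 measured genes of the elongation list beside the members, 2 were at least 2-fold higher and 2 lower for P2.5 over E17.5, with all libraries and without the 6, and 2 higher and 3 lower for P6.5 over P2.5. For P2.5 over E17.5, 22.6% of all genes were higher and 32.4% lower (23.9% and 32.1% without the 6). For P6.5 over P2.5 these shares were 6.90% and 9.30%. Elovl2, the elongase of very long polyunsaturated chains, stood at 2.15 CPM at P2.5, against 21.8 CPM at E17.5, and Hsd17b12, the ketoacyl reductase of the cycle, at 46.1 CPM at P2.5, against 67.3 CPM at E17.5. The dehydratases Hacd2 and Hacd4 were higher at P2.5, with 99.4 and 13.8 CPM at P2.5, against 46.7 and 1.66 CPM at E17.5, though Hacd2 lay within 2-fold without the 6 libraries (log2 ratio 0.72). Tecr of the same list passed 2-fold there instead (1.56, against 0.35 with all libraries). At P6.5 Hacd4 stood at 32.1 CPM, against 13.8 CPM at P2.5, and Hacd1 at 12.5 CPM, against 33.7 CPM at P2.5. Of 6 measured genes among the other desaturases and their electron carriers, 3 were at least 2-fold higher and 0 lower at P2.5, with all libraries and without the 6, and 1 higher and 0 lower at P6.5. The 3 genes were not the same. Scd3 fell just within 2-fold without the 6 (log2 ratio 0.995, against 1.41 with all libraries) and Cyb5a passed it (1.93, against 0.84). Degs1, which desaturates ceramides, stood at 265.45 CPM at P2.5, against 68.01 CPM at E17.5, and Cyb5a, the cytochrome that passes electrons to desaturases, had 37.005, 66.8 and 157.8 CPM at the 3 stages. Cyb5r3, its reductase, had 230.2, 282.85 and 266.5 CPM.

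Uptake, storage and breakdown of fatty acids were counted in the same way and stand against the same shares. Of 12 measured genes of activation and uptake 2 were at least 2-fold higher and 4 lower for P2.5 over E17.5; the ends among genes of at least 5 CPM were Slc27a2, a fatty acid transporter and activating enzyme (132.2 CPM at P2.5, against 10.8 CPM at E17.5), and Cd36, a fatty acid transporter (48.9 CPM at P2.5, against 4.54 CPM at E17.5), and at the low end the acyl-CoA synthetases Acsl5 (2.75 CPM at P2.5, against 93.7 CPM at E17.5) and Acsl6 (0.691 CPM at P2.5, against 11.9 CPM at E17.5). For P6.5 over P2.5, 2 of 10 were at least 2-fold higher and 1 lower: Cd36 (109.96 CPM at P6.5, against 48.9 CPM at P2.5), Fabp5, a fatty acid carrier (29.1 CPM at P6.5, against 3.78 CPM at P2.5), and Slc27a2 (40.6 CPM at P6.5, against 132.2 CPM at P2.5). Of 12 glycerolipid and lipid droplet genes 3 were higher and 3 lower at P2.5 and 1 higher and 0 lower at P6.5. Among droplet coat genes Plin2 stood at 9.15 CPM at P2.5, against 93.99 CPM at E17.5 (log2 ratio -3.29, but -0.90 without the 6 E17.5 libraries), and Plin3 at 177.65 CPM at P2.5, against 30.3 CPM at E17.5. Of 16 oxidation genes 3 were higher and 2 lower at P2.5, and 0 higher and 1 lower at P6.5 (Ehhadh, a peroxisomal enzyme, 5.06 CPM at P6.5, against 13.2 CPM at P2.5). Of 8 measured genes of the separate mitochondrial synthesis pathway 3 were higher and 1 lower at P2.5 and none differed 2-fold at P6.5; its reductase Mecr stood at 216.45 CPM at P2.5, against 63.2 CPM at E17.5. Without the 6 E17.5 libraries 23.9% of all genes were higher and 32.1% lower at P2.5. The counts then became 3 higher and 3 lower for uptake, 5 and 2 for glycerolipids, 7 and 1 for oxidation and 2 and 1 for mitochondrial synthesis.

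Across the cells of 1 stage the members varied mostly apart from each other. Spearman correlations of log2(CPM + 1) over the 36 pairs had a median of 0.15 over 22 E17.5 cells, 0.04 over the P2.5 cells and 0.05 over 47 P6.5 cells. At E17.5 14 pairs passed 0.3, led by Elovl6 with Elovl1 (0.70), Scd2 with Fads2 (0.675) and Scd2 with Fads1 (0.66). The genes of these pairs also went with marker lists. Elovl6 and Elovl1 went with mast cell markers (0.59 and 0.55) and with a list of oocyte growth and egg coat genes (0.82 and 0.59). Scd2, Fads1 and Fads2 did not go with that growth list (-0.09, -0.29 and -0.37). Scd2, Fads1 and Fads2 went with granulosa markers (0.53, 0.41 and 0.57). They went against mast cell markers (-0.425, -0.44 and -0.66) and germ cell markers (-0.63, -0.66 and -0.40). What lies behind these values was not tested. At P2.5 1 pair passed 0.3, Scd2 with Fads1 (0.41), and at P6.5 3 did, led by Scd1 with Scd2 (0.39), whose Scd1 counts lie in 2 cells. Acaca and Fasn, which act in sequence, had correlations of -0.06, 0.16 and 0.14 at the 3 stages. Sparse counts lower such values, and cells of 1 stage share amplification and depth.

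**Figure D5:**
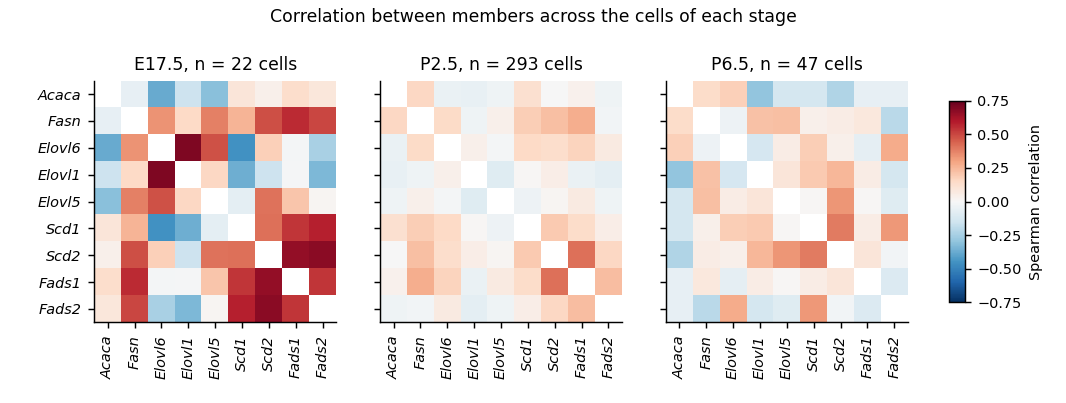
Spearman correlation of log2(CPM + 1) between members across the cells of E17.5, P2.5 and P6.5 (red positive, blue negative, on 1 scale). The block of Scd1, Scd2, Fads1 and Fads2 is strongest at E17.5, and most pairs are near 0 at P2.5, where Scd2 with Fads1 (0.41) is the highest.

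Within P2.5 Fasn was the member that went most with the list of oocyte growth and egg coat genes (Spearman 0.33), ahead of Fads1 (0.22), Acaca (0.16), Scd2 (0.16) and Elovl5 (0.16). Fasn also went with the total count of the cell (0.30), and with Mlxipl (0.145) and Srebf1 (0.205) less. At P6.5 its correlation with the growth list was 0.10 over 47 cells, where every cell had at least 17696 CPM of that list. Of the genes compared (7107 of at least 20 CPM that 50% of P2.5 cells had counts of), those most like Elovl5 were Scaf1 (0.355), Rnf10 (0.34) and Actg1 (0.34), those most like Elovl1 included Fxr1 (0.33) and Ubxn4 (0.30), and those most like Acaca were Limk1 (0.28), Arid1b (0.28) and Usp19 (0.28). None of these was a gene of the lists above, and all of these values were low.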

How the data were processed

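Counts and FPKM: 2 kinds of values were used. The authors deposited raw counts per gene and FPKM values, 1 column per library, with 0 columns of no sample. The submitters' processing notes name STAR 2.7.10b, HTSeq 0.13.5, RSEM 1.3.3 and mm10 without roles; no source used here gives annotation, strand setting or the treatment of multi-mapping reads. The 92 spike-in rows were left out of totals. Near-identical libraries (median chi-square under 1.5 over genes whose summed count was 20 or more) were summed as 1 cell.

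Counts were summed per stage and scaled to CPM (Python 3.11.15, numpy 2.4.6, scipy 1.17.1). Counts of 2-fold genes, list medians and alternatives used log2 ratios after adding 0.5 CPM; single ratios with an interval used none. TMM (edgeR 4.0.16) and median-of-ratios factors (DESeq2 1.42.0), both in R 4.3.3, served only as alternative scalings of the counts. No test was made. Ratios were tested on simulated data with known folds. Pearson and Spearman correlations describe cells. The deposited FPKM values served to compare genes and as an alternative.

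The members and lists were chosen with earlier results of these data known. Beside the members, up to 2 genes at either end per list and comparison with at least 5 CPM were named, and Srebf1, Srebf2 and Mlxipl always. Slc25a1, Scd3, Scd4 and Tecr were added with their values known. No doublet caller was run on hand-picked cells. Reads lack molecular identifiers, so intervals of ratios and of the Scd1 share of counts cover counting error alone. Intervals and upper limits of shares of cells cover the drawing of cells within a stage, taken as independent. They hold no difference between animals. Hsd17b8 has no row by that symbol and was not used here. One gene among those most like a member is not reported here.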

Additional observations from a re-analysis of the deposited data

How the results depend on the processing

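For P2.5 over E17.5 the count of lower members by 2-fold (7 of 9) was 4 without E17.5 libraries 8, 10, 15 and 16, 4 without 6 E17.5 libraries (8, 10, 15, 16, 18 and 19, chosen after seeing the data) and 2 on the spike-in scale; it was 6 with FPKM and with the median of cells and 6 to 7 with each cell left out in turn. The count of higher members (0) was then 1 without the 4 libraries (Elovl1), 1 with the median of cells and 2 on the spike-in scale. For P6.5 over P2.5 the count of higher members (1) was 8 on the spike-in scale. The count of lower members (1, Fads2) was 0 with TMM, median-of-ratios and spike-in scaling, with FPKM, with the median of cells, without cells that had markers of another cell type, with 1 CPM added, and without P2.5 cell 66 (chosen after seeing the data), 2 with 0.1 CPM added, and 0 to 2 with each cell left out in turn. Single log2 ratios past 2-fold changed sign in 5 cases: for P2.5 over E17.5, Acaca to 0.54 and Fasn to 0.40 on the spike-in scale, Acaca to 0.47 without cells with markers of another cell type, which kept 1 of 22 E17.5 cells, and Scd1 to 0.10 with E17.5 libraries 1 to 10 alone; for P6.5 over P2.5, Fads2 to 1.66 on the spike-in scale. Ratios within 2-fold changed sign in 17 cases: for P2.5 over E17.5, Elovl1 to between 0.90 and 1.63 (spike-in scale, median of cells, without 4 or 6 E17.5 libraries) and Elovl5 to between 0.15 and 2.03 (spike-in scale, without 4 or 6 libraries); for P6.5 over P2.5, Acaca to between 0.12 and 2.704 (TMM, median-of-ratios and spike-in scaling, FPKM, median of cells), Elovl1 to between 0.13 and 2.63 (those 3 scalings), and Elovl6 and Scd2 to 1.999 and 2.43 on the spike-in scale. Spike-in scaling moves all genes by 2.51 and 2.78, and the cause of the other shifts was not tested. Of the single ratios under alternatives, 83 lay within the counting interval or hardly differed from the main value, and 22 of the rest changed sign. All remaining ratios moved but kept their sign. The interval is that of the ratio without 0.5 CPM added, and some main values, such as that of Scd1 for P2.5 over E17.5, lie outside it. TMM and median-of-ratios scaling moved the median of all genes by 0.26 and 0.18 for P2.5 over E17.5 and by 0.28 and 0.34 for P6.5 over P2.5. No paired analysis was possible because the replicate numbers of the labels only name cells. Sparse members (Elovl6, Scd1, Scd2, Fads1, Fads2) are limited by capture of RNA from 1 cell: a count of 0 does not show absence.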
